A study of Saccharomyces cerevisiae with 36 samples.

Results

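The 44 genes described here encode proteins of the large subunit of the cytosolic ribosome of *Saccharomyces cerevisiae*, RPL1A to RPL32 with their paralogs. They were picked by systematic identifier (for example YPL220W for RPL1A, YKL180W for RPL17A, YIL133C for RPL16A and YLR075W for RPL10) from a table of 6717 gene identifiers, and all 44 were found in it. The selection rule used no measured value, but the genes were chosen with earlier results of these data known. The expression of these genes was followed in strain 12, which is the dominant one, and in the non-dominant strain 11. Both were labelled with a fluorescent protein (GFP or Sapphire) and grown with shaking at 25°C in natural Nebbiolo must. Each strain was grown together with the other (mixed culture) or alone (single culture). At 12, 20 and 30 h, corresponding to the beginning and the middle of the exponential phase and the onset of the stationary phase, cells were separated by flow cytometry and their amplified RNA was sequenced. This gave 12 groups of strain, culture and time, each with 3 libraries from triplicate fermentations, 36 libraries in all. The fluorescent proteins were swapped between the strains, but the labels do not name the protein carried in a given library, so its part in the results was not tested.

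The large subunit joins amino acids in its peptidyl transferase centre and releases the growing chain through an exit tunnel. Most ribosomal proteins of this yeast are encoded by a pair of paralogs kept from an ancient genome duplication, and their mRNAs are among the most abundant in rapidly growing cells. Transcription of these genes, which depends on Rap1, Fhl1, Ifh1, Sfp1 and Hmo1, is known to decrease when nutrients become limiting or when cells are stressed.

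The genes are 18 pairs of paralogs, 7 genes with no paralog and RPL15A, whose partner was not among the 44. Several pairs are so alike that a short read cannot always be assigned to 1 copy, which bears on every value of those pairs. The stretches below are 75 bases of coding sequence in the R64 reference genome, and bases that differ between the copies are in capitals. The RPL1 pair is identical along the stretch, the RPL17 pair differs at 6 positions and the RPL16 pair at 9.
RPL1A, chrXVI:135805-135879, plus strand: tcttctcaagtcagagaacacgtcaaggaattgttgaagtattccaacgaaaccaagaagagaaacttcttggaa
RPL1B, chrVII:254656-254730, plus strand: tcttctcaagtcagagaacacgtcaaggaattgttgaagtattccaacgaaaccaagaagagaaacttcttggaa
RPL17A, chrXI:109314-109388, plus strand: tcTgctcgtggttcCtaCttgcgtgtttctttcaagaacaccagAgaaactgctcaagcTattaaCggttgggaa
RPL17B, chrX:90831-90905, plus strand: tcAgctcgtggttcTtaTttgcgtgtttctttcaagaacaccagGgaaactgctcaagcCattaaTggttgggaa
RPL16A, chrIX:98944-99018, minus strand: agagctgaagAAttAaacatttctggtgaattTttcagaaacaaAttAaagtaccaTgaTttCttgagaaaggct
RPL16B, chrXIV:494373-494447, minus strand: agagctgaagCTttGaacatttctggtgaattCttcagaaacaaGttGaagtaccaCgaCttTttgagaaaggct

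The level of the genes was first compared in RPKM, the reads of a gene per kilobase of its length and per 1000000 reads on exons, averaged over the 36 libraries. RPL10, whose protein is added late in the assembly of the subunit and lies close to the peptidyl transferase centre, had the highest level, 1256 RPKM. It was followed by RPL17A, whose protein lines the exit tunnel, with 1194 RPKM. RPL5, whose protein binds the 5S rRNA, had 767 RPKM. By read number the 3 most abundant genes were RPL10, RPL17A and RPL3, which took 29.3% of the 57170 reads counted on the 44 genes. At the other end, RPL1A had 2.42 RPKM, RPL1B 9.56 RPKM and RPL4B 14.9 RPKM. RPL1A was represented by 10 reads in all and had none in 29 of the 36 libraries. The Rpl1 protein forms the mobile L1 stalk and Rpl4 reaches into the exit tunnel, so both are needed in every ribosome.

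The 5 genes with the lowest levels, RPL1A, RPL1B, RPL4B, RPL11A and RPL4A, were among those with the least distinctive sequences. Of the possible 75-base windows of the coding sequence, 28.4% occurred once in the R64 genome for each RPL1 copy, 37.8% for RPL4, 44.1% for RPL11 and 45.3% for RPL7, against 100% for RPL10, RPL17A and RPL5. In all, 19 genes had every window in a single place and 8 had fewer than 50%. Across the 44 genes the rank correlation between this share and the mean RPKM was 0.70, which is given as a description since paralogs share sequence and all genes share the libraries. How reads that matched both copies were counted is not given in the sources used here, so the part it has in these levels was not tested, and the values of the RPL1, RPL4, RPL7, RPL11 and RPL14 pairs are uncertain. RPL32 was counted over 725 bases, while its coding sequence in R64 has 393 bases, so its RPKM is not strictly comparable with the others. A further 8 genes overlap another gene model. For 7 of them (RPL7B, RPL8B, RPL10, RPL12A, RPL12B, RPL13B and RPL28) the other model is on the opposite strand, and the use of strand in the counting is not given in the sources used here.

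**Figure D1:**
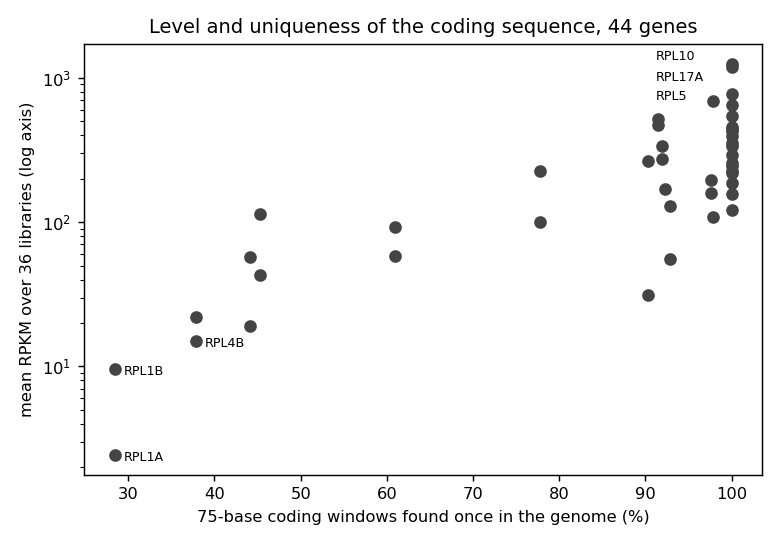
Mean RPKM over 36 libraries (log axis) of each of the 44 genes against the percentage of its 75-base coding windows found once in the R64 genome. RPL1A and RPL1B, with 28.4% of such windows, lie lowest at 2.42 and 9.56 RPKM, while RPL10 and RPL17A, with 100%, lie highest.

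The libraries held between 35400 and 530376 reads on genes, with a median of 125756. Depth differed with time. At 12 h it lay between 133279 and 530376 reads, at 20 h between 35400 and 341452, and at 30 h between 52267 and 145780. The number of the 44 genes without a read per library was between 0 and 2 at 12 h, between 2 and 14 at 20 h and between 2 and 9 at 30 h, and 3 reads correspond to 5.66 per 1000000 reads on genes in the deepest library and 84.7 in the shallowest. As a check of the labels, SSU1, the sulphite pump that the study associates with strain 12, lay between 453 and 1337 per 1000000 reads on genes in the 18 strain 12 libraries, against 0 to 302 in the 18 strain 11 libraries, with no overlap. Within strain 11, SSU1 was at 45.4 to 302 in mixed culture, against 0 to 23.3 in single culture on the same scale. The purity of the sorted cells was not tested, and this difference stands beside every comparison that involves strain 11 cells from mixed culture.

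The 44 genes took between 0.970 and 2.29% of the reads on genes at 12 h, between 0.270 and 0.591% at 20 h and between 0.310 and 0.741% at 30 h. The 12 libraries of 12 h therefore lay above all 24 libraries of the later times. At 12 h the mean was 1.94 ± 0.361% in strain 12 in mixed culture and 1.48 ± 0.444% in strain 12 in single culture, while strain 11 had 1.23 ± 0.181% in mixed and 1.304 ± 0.0964% in single culture (SD, n = 3 each). At 20 h it was 0.381 ± 0.0130% in mixed and 0.314 ± 0.0570% in single culture of strain 12, and 0.469 ± 0.106% in mixed and 0.395 ± 0.115% in single culture of strain 11. At 30 h it was 0.421 ± 0.0581% in mixed and 0.389 ± 0.0615% in single culture of strain 12, and 0.593 ± 0.147% in mixed and 0.412 ± 0.131% in single culture of strain 11. At 12 h strain 12 in mixed culture lay above both groups of strain 11 without overlap. At 20 h both groups of strain 12 lay below strain 11 in mixed culture without overlap, at 30 h the single culture of strain 12 did, and all other pairs of groups within each of the 3 times overlapped. These are shares of a library, so that fewer of these mRNAs per cell and more of all other mRNAs per cell cannot be told apart.

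**Figure D2:**
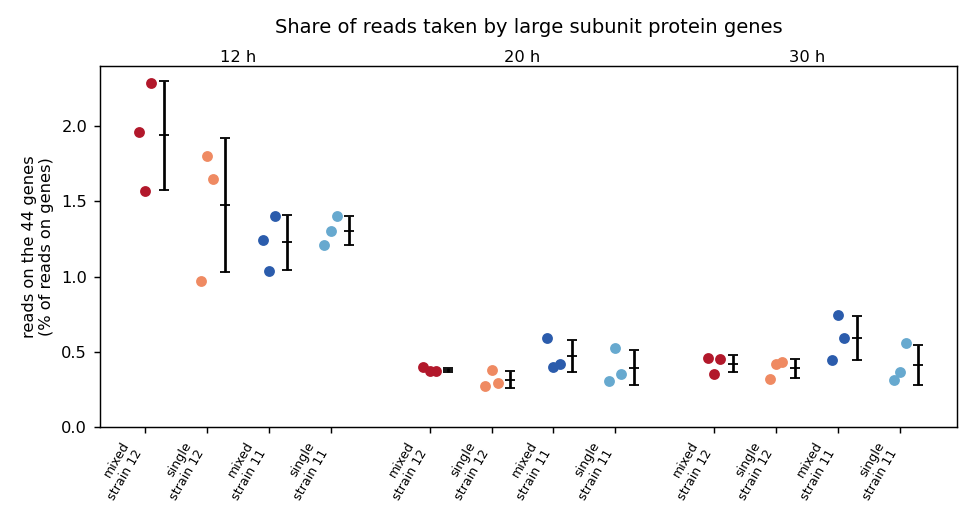
Share of the reads on genes that fell on the 44 genes in each of the 36 libraries (points), with the mean and SD of each group of 3 beside them. All 12 h libraries lie between 0.970 and 2.29%, above the 20 h and 30 h libraries, which lie between 0.270 and 0.741%.

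To follow single genes, counts were compared with edgeR's quasi-likelihood test, and a gene was taken as changed when its p, adjusted over the 3670 genes tested by the Benjamini-Hochberg method, was no larger than 0.05. Levels of single libraries are given in counts per 1000000 reads (CPM) with library sizes scaled by edgeR's TMM factors. Of the 44 genes, 35 had enough reads to be tested. The other 9 were RPL1A, RPL1B, RPL4A, RPL4B, RPL7B, RPL9B, RPL11A, RPL14A and RPL18B, with between 10 and 257 reads in all libraries together. Over the 28 comparisons, which share libraries, RPL17A was called in 9, RPL16A in 7, and RPL12B and RPL23A in 5 each.

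Between 20 and 12 h the genes fell together in both strains. In strain 12 in mixed culture all 35 tested genes fell, with a median log2 fold change of -2.58, while 12.2% of all genes tested fell. In strain 12 in single culture 32 fell (median -2.47), against 12.6% of all genes. In strain 11 in mixed culture 14 fell (median -1.36), against 2.72% of all genes. In strain 11 in single culture 20 fell (median -1.50), against 13.7% of all genes. None of the 35 rose in any of the 4 comparisons and all 35 estimates were negative in each. The filter on reads could keep a gene through its 12 h libraries alone, which favours falls among the genes tested. RPL11B was such a gene, with at most 24.6 CPM in any library of 20 or 30 h. The shares of all genes come from genes that passed the same filter. The groups of 3 libraries did not overlap for 35 genes in strain 12 in mixed and 31 in single culture, and for 28 genes in strain 11 in mixed and 29 in single culture, against 19.6, 18.5, 14.4 and 21.1% of all genes lower without overlap in the same 4 comparisons. In strain 12 in mixed culture, where all 35 fell, depth was 123119 to 341452 reads at 20 h, against 148542 to 241419 reads at 12 h. In the other 3 comparisons every 20 h library was shallower than every 12 h library (35400 to 120796 reads at 20 h, against 133279 to 530376 reads at 12 h), and the part of depth there was not tested.

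The count in strain 11 in mixed culture depended on single libraries. It was 4 without replicate 3 and 8 without replicate 1 of its 12 h group, and 6 without replicate 2 or 3 of its 20 h group. Fitting the compared libraries alone gave 27, and limma on log2(RPKM + 1) gave 5. That test also gave 20 in strain 12 in mixed culture.

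**Figure D3:**
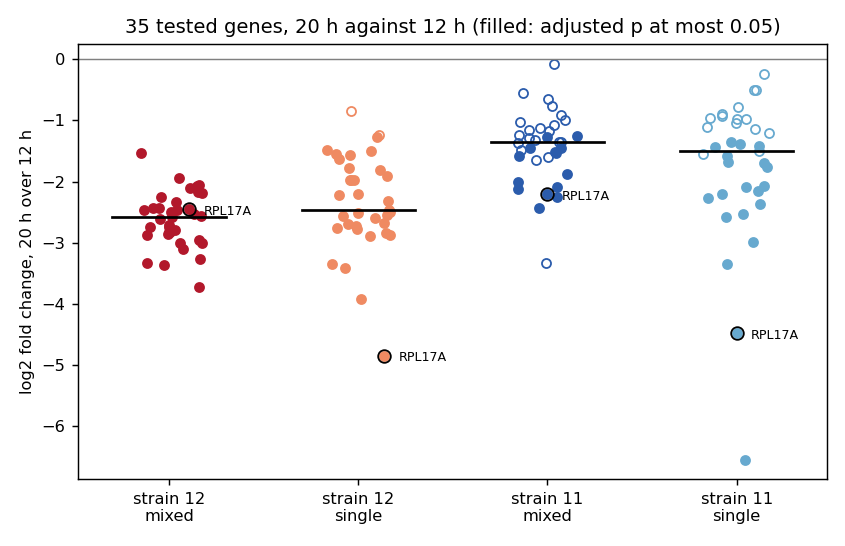
log2 fold change at 20 h over 12 h of the 35 tested genes in each strain and culture, with filled points for an adjusted p of at most 0.05, a line at the median and RPL17A ringed in black. All points lie below 0, and RPL17A stands at -4.85 and -4.48 in the single cultures of strains 12 and 11.

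The genes were also counted by role, to be read against the shares of all genes given above. Of a list of exit tunnel and core proteins, which is not complete, RPL3, RPL17A, RPL17B and RPL25 were tested, and all 4 fell in strain 12 in mixed and in single culture, 2 in strain 11 in mixed and 3 in strain 11 in single culture. Of the tested partners of the 5S rRNA, RPL5 fell in all 4 comparisons and RPL11B in all but strain 11 in mixed culture. At the base of the stalk, which recruits translation factors, RPL12B fell in all 4 and RPL12A in both cultures of strain 12. RPL10, whose protein lies close to the peptidyl transferase centre, fell in all 4.

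Among the genes that changed with no overlap between groups, RPL30 had the largest fall in strain 12 in mixed culture. Its protein binds its own transcript and blocks its splicing. RPL30 was at 17.2, 0 and 8.14 CPM at 20 h, against 93.1, 90.2 and 217 CPM at 12 h, a log2 fold change of -3.72 ± 0.72 (SE, adjusted p = 5.67e-05 in edgeR). In strain 12 in single culture the largest fall was that of RPL17A, described below. RPL2A, whose protein lies close to the peptidyl transferase centre, had the largest fall in strain 11 in mixed culture. It was at 69.4, 59.3 and 48.7 CPM at 20 h, against 320, 204 and 407 CPM at 12 h (log2 fold change -2.42 ± 0.48, adjusted p = 0.000624 in edgeR). All its 20 h libraries lay below all its 12 h libraries. In strain 11 in single culture RPL11B, which passed the filter only through 12 h libraries, had no read in any 20 h library. At 12 h it was at 49.9, 81.6 and 92.6 CPM. On reads without TMM scaling, set against 3 reads over the 3 libraries of 20 h, it was at least 4.46-fold lower at 20 h (adjusted p = 0.00306 in edgeR). With RPL11B placed at this bound, the median log2 fold change of the 35 genes remained -1.50. Of the coding windows, 44.1% of RPL11B and 77.7% of RPL2A occurred once in the genome, so reads could be shared with their copies.

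The other genes of the translation machinery were measured for comparison, to be read against the shares of all genes that fell, given above. The shares of all genes that rose were 11.6% in strain 12 in mixed and 13.2% in single culture. In strain 11 they were 3.05% in mixed and 15.1% in single culture. Counts near these shares are a description only. Of 25 tested other large subunit and stalk genes, all 25 fell in strain 12 in mixed culture, 15 in strain 12 in single, 9 in strain 11 in mixed and 15 in strain 11 in single culture. Of 38 tested small subunit genes, 37 fell in strain 12 in mixed, 28 in strain 12 in single, 18 in strain 11 in mixed and 24 in strain 11 in single culture. Median log2 fold changes of these lists lay between -1.44 and -2.46. The factors of large subunit assembly moved less, since 9 of 18 fell in strain 12 in mixed culture (median -1.30) and 2 or 3 of 18 in the other 3 comparisons, with 1 that rose in strain 12 in single culture. Of 6 tested RNA polymerase I genes, 2 fell in strain 12 in mixed culture and 1 in each other comparison, while 1 rose in strain 12 and 2 in strain 11 in single culture. Of the 15 tested mitochondrial large subunit genes, 4 fell in strain 11 in single culture, 1 in strain 12 in single culture and 0 in either mixed culture. Of 7 tested regulators, 1 fell and 1 rose in strain 12 in mixed culture, which is near the 12.2 and 11.6% of all genes. RAP1, which binds the promoters of ribosomal protein genes, fell by 1.08 on the log2 scale there (adjusted p = 0.0445 in edgeR). In the same comparison CRF1, a co-repressor of these genes, rose (log2 fold change 2.02 ± 0.71, adjusted p = 0.0299 in edgeR).

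Between 30 and 20 h little changed. In strain 12 in single culture RPL17A rose (log2 fold change 1.96 ± 0.50, adjusted p = 0.0388 in edgeR), as the only one of 35, against 0.627% of all genes in either direction. It lost this call on leaving out any of 5 of the 6 libraries compared (all but replicate 2 of 30 h), with an adjusted p of up to 0.308. No tested gene changed in strain 12 in mixed culture (0.0272% of all genes), in strain 11 in mixed culture (0%) or in strain 11 in single culture (0.708%). In each of these 3 comparisons 2 of the 35 genes had an unadjusted p under 0.05, and DESeq2 and limma gave 0 calls. The median log2 fold changes were between 0.12 and 0.41 in the 4 comparisons.

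Of the 8 genes without a paralog in the set, RPL5, RPL10 and RPL32 fell between 12 and 20 h in all 4 comparisons, RPL3 in 3, RPL15A, RPL25 and RPL28 in both cultures of strain 12, and RPL30 in strain 12 in mixed culture. Their RPKM is given as the mean ± SD of 3 libraries for the groups with the lowest and the highest mean. RPL3, close to the peptidyl transferase centre, ranged from 955 ± 204 (strain 11 single) to 1570 ± 425 RPKM (strain 12 mixed) at 12 h, from 308 ± 44.2 (strain 12 mixed) to 562 ± 103 RPKM (strain 11 mixed) at 20 h and from 262 ± 74.6 (strain 12 single) to 528 ± 86.1 RPKM (strain 11 mixed) at 30 h. RPL5 ranged from 1168 ± 263 (strain 11 single) to 1961 ± 525 RPKM (strain 12 mixed) at 12 h, from 382 ± 98.1 (strain 12 single) to 493 ± 258 RPKM (strain 11 mixed) at 20 h and from 339 ± 115 (strain 11 single) to 596 ± 110 RPKM (strain 11 mixed) at 30 h. RPL10 ranged from 1767 ± 193 (strain 11 mixed) to 3217 ± 1326 RPKM (strain 12 mixed) at 12 h, from 491 ± 217 (strain 12 single) to 712 ± 187 RPKM (strain 11 mixed) at 20 h and from 552 ± 170 (strain 12 single) to 946 ± 182 RPKM (strain 11 mixed) at 30 h. In these 3 genes strain 12 in mixed culture had the highest mean at 12 h and strain 11 in mixed culture the highest at both later times. The lowest and the highest group overlapped within their SD for RPL3 at 12 h, RPL5 at 20 h and RPL10 at 12 and 20 h.

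RPL15A ranged from 233 ± 31.2 (strain 11 single) to 488 ± 89.1 RPKM (strain 12 mixed) at 12 h, from 77.9 ± 20.3 (strain 12 single) to 115 ± 77.3 RPKM (strain 11 single) at 20 h and from 84.7 ± 52.4 (strain 12 single) to 116 ± 49.6 RPKM (strain 11 mixed) at 30 h. RPL25, which sits at the tunnel exit, ranged from 214 ± 126 (strain 11 single) to 576 ± 113 RPKM (strain 12 mixed) at 12 h, from 119 ± 14.5 (strain 11 mixed) to 183 ± 97.6 RPKM (strain 11 single) at 20 h and from 156 ± 62.6 (strain 12 mixed) to 263 ± 124 RPKM (strain 11 mixed) at 30 h. For both, the lowest and the highest group overlapped within their SD at 20 and 30 h.

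RPL28, the protein altered in cycloheximide-resistant mutants, ranged from 483 ± 158 (strain 11 mixed) to 1098 ± 493 RPKM (strain 12 mixed) at 12 h, from 200 ± 69.8 (strain 11 mixed) to 372 ± 314 RPKM (strain 11 single) at 20 h and from 226 ± 139 (strain 12 single) to 403 ± 94.2 RPKM (strain 11 mixed) at 30 h. RPL30 ranged from 196 ± 75.1 (strain 11 mixed) to 375 ± 200 RPKM (strain 12 mixed) at 12 h, from 27.4 ± 28.1 (strain 12 mixed) to 135 ± 89.9 RPKM (strain 11 single) at 20 h and from 67.1 ± 78.2 (strain 12 mixed) to 221 ± 145 RPKM (strain 11 single) at 30 h. RPL32 ranged from 797 ± 55.3 (strain 11 single) to 1040 ± 272 RPKM (strain 12 mixed) at 12 h, from 172 ± 137 (strain 12 single) to 411 ± 29.7 RPKM (strain 12 mixed) at 20 h and from 264 ± 48.8 (strain 12 single) to 718 ± 344 RPKM (strain 11 mixed) at 30 h. RPL30 thus had its highest mean at 12 h and its lowest at both later times in strain 12 in mixed culture. Its lowest and highest groups overlapped within their SD at each time, and so did those of RPL28, while those of RPL32 overlapped at 12 h only. The later values of RPL30 in strain 12 in mixed culture rested on 6, 0 and 1 reads at 20 h and 7, 2 and 0 reads at 30 h.

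**Figure D4:**
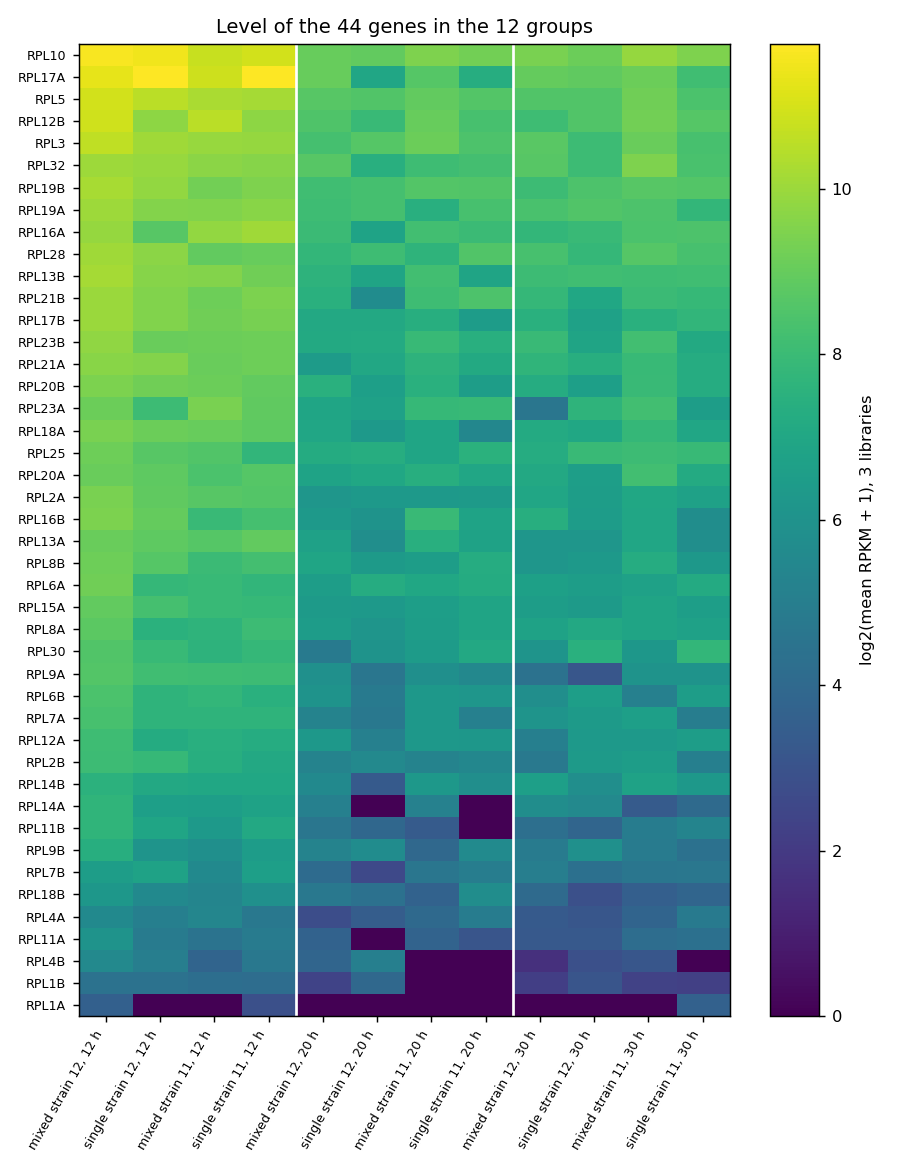
Mean level of each of the 44 genes in each of the 12 groups, as log2(mean RPKM + 1) over 3 libraries, with genes ordered by their mean over all libraries and groups by time. The 12 h columns are brighter than the later ones for most genes, and the lowest rows are the RPL1, RPL4 and RPL11A genes.

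RPL17A was the gene called most often, and its level at 20 h was set beside the culture. The gene lies on chromosome XI of the Saccer2 genome and was counted over 2 exons, at positions 109274 to 109582 and 109889 to 110134, both coding. In strain 12 at 20 h it was at 344, 297 and 204 CPM in mixed culture, against 60.6, 84.6 and 71.1 CPM in single culture. The groups did not overlap, and the level was higher in mixed culture (log2 fold change 2.03 ± 0.47, adjusted p = 0.0137 in edgeR). In strain 11 at 20 h it was at 208, 267 and 187 CPM in mixed culture, against 51.7, 108 and 119 CPM in single culture, with a log2 fold change of 1.27 ± 0.48 that did not pass the test (adjusted p = 0.116 in edgeR). At 12 h the order was the other way in strain 11, with 871, 894 and 1242 CPM in mixed culture, against 1887, 2554 and 1616 CPM in single culture (log2 fold change -1.004 ± 0.32, adjusted p = 0.0318 in edgeR). In strain 12 at 12 h it was at 1070, 1888 and 1747 CPM in mixed culture, against 1470, 3337 and 1300 CPM in single culture, and the groups overlapped (adjusted p = 0.642 in edgeR). At 30 h the mixed and single groups overlapped in both strains.

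The fall of RPL17A from 12 to 20 h was therefore smaller in mixed than in single culture in both strains. The log2 fold change was -2.45 ± 0.34 in mixed and -4.85 ± 0.45 in single culture of strain 12, and -2.21 ± 0.36 in mixed and -4.48 ± 0.43 in single culture of strain 11. The difference itself, in a contrast added after the data were seen, was 2.39 ± 0.57 in strain 12 (adjusted p = 0.0107 in edgeR) and 2.27 ± 0.57 in strain 11 (adjusted p = 0.0151 in edgeR). RPL17A was the only one of the 35 genes with such a difference in either strain, against 2.45% of all genes in strain 12 and 2.64% in strain 11 in either direction. The call in strain 12 was lost without replicate 2 of the single culture at 12 h (adjusted p = 0.0707) or replicate 1 of the single culture at 20 h (0.0541), and that in strain 11 without replicate 1 of the single culture at 20 h (0.106) or replicate 2 of the mixed culture at 20 h (0.0523). In the single cultures at 20 h the gene rested on few reads, 13 in strain 12 and 17 in strain 11 over 3 libraries each by exon counts. Reads fell on both exons in every group, with 52.0 to 76.4% on the second. The paralog RPL17B, with 94.7, 94.8 and 32.6 CPM in mixed and 36.3, 169 and 23.7 CPM in single culture of strain 12 at 20 h, overlapped between the cultures.

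**Figure D5:**
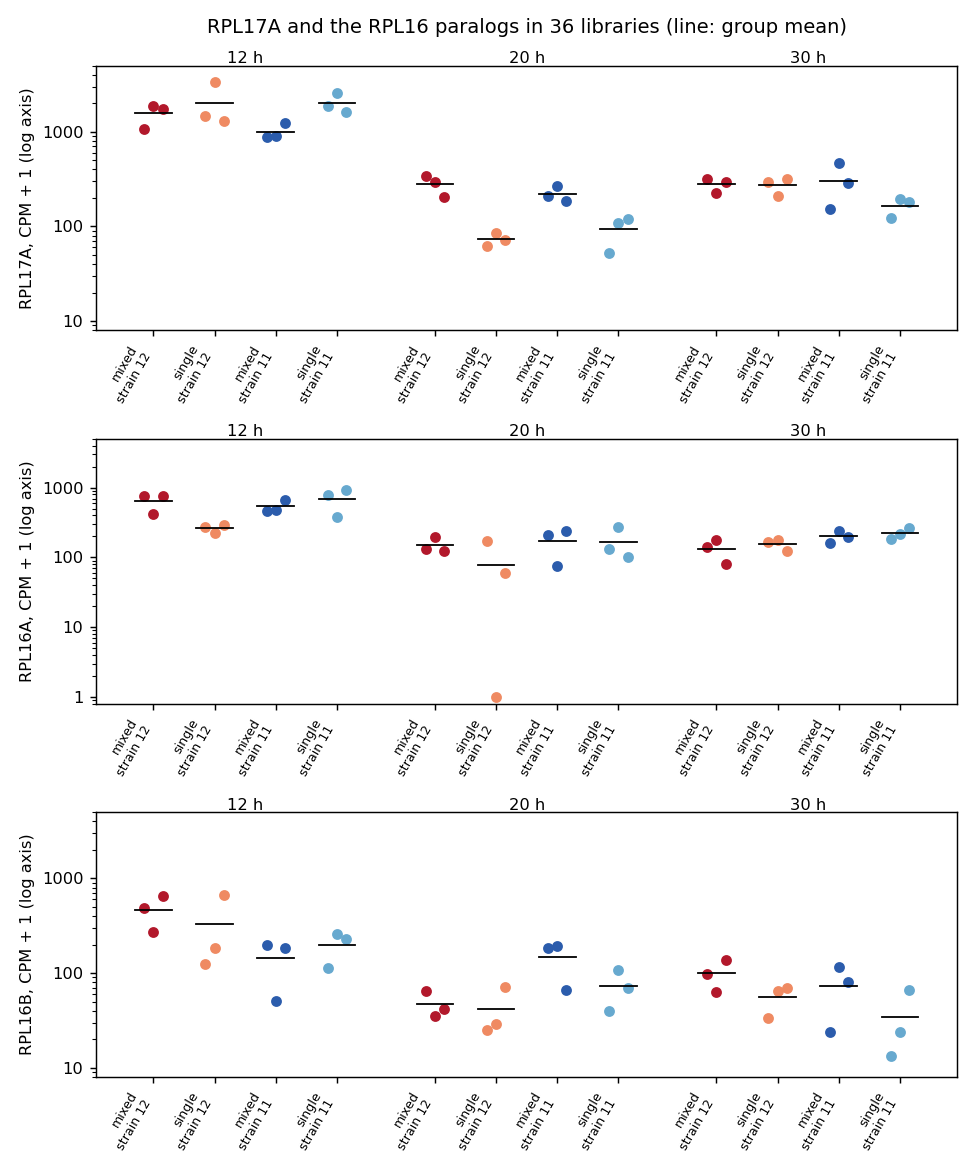
Level of RPL17A, RPL16A and RPL16B in each of the 36 libraries as TMM-scaled CPM + 1 on a log axis, grouped by time, with a line at the group mean. At 20 h the mixed cultures of RPL17A lie between 187 and 344 CPM, above the single cultures at 51.7 to 119 CPM.

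Few other genes differed between mixed and single culture. In strain 12 at 12 h, 2 of 35 genes rose in mixed culture, against 1.61% of all genes tested, and 34 of the 35 estimates were positive (median log2 fold change 0.59, 8 genes with an unadjusted p under 0.05). RPL16A was at 752, 416 and 754 CPM in mixed culture, against 275, 226 and 295 CPM in single culture (log2 fold change 1.26 ± 0.36, adjusted p = 0.0452 in edgeR). RPL12B was at 1427, 841 and 970 CPM in mixed culture, against 471, 508 and 394 CPM in single culture (log2 fold change 1.23 ± 0.33, adjusted p = 0.0334 in edgeR). Neither gene overlapped between the cultures. The 2 calls became 0 without replicate 1 or 2 of the single culture or replicate 1 or 3 of the mixed culture, 4 without replicate 2 of the mixed culture, and 0 with limma on log2(RPKM + 1) or with only the compared libraries. The call of RPL16A was lost without any of 5 of the 6 libraries (all but replicate 2 of the mixed culture), with an adjusted p of up to 0.210. In the same comparison 4 of 18 assembly factors rose, among them NSR1, a nucleolin-like protein of the nucleolus, with a log2 fold change of 3.14 ± 0.50 (adjusted p = 3.8e-05 in edgeR). The largest subunits of RNA polymerase I rose as well, with log2 fold changes of 2.11 ± 0.37 for RPA135 and 1.55 ± 0.33 for RPA190 (adjusted p = 0.000183 and 0.00275 in edgeR).

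In strain 12 at 20 h RPL17A was the only gene of the 35 that changed with the culture, against 1.28% of all genes, and at 30 h no gene did, against 0.218% of all genes. At 20 h its call was lost without replicate 1 or 3 of the single culture or replicate 1 or 2 of the mixed culture, with an adjusted p of up to 0.112. In strain 11 at 12 h RPL17A was again the only one, against 8.61% of all genes, and the call was lost without replicate 1 or 2 of either culture, with an adjusted p of up to 0.183. No tested gene changed in strain 11 at 20 h (4.99% of all genes) or at 30 h (3.81%). At an unadjusted p under 0.05 these 3 comparisons with 0 calls in edgeR held 2 genes (strain 12, 30 h), 3 genes (strain 11, 20 h) and 5 genes (strain 11, 30 h). DESeq2 gave 0 calls in all of them, and limma gave 2 in strain 11 at 20 h and 0 in the others. Whether the effect of the mixed culture differed between the strains was tested directly, and 0 of 35 genes did so at 12, 20 or 30 h, against 1.17, 0.0817 and 0.0272% of all genes. With an unadjusted p under 0.05 there were 3, 2 and 2 genes, and DESeq2 gave 1, 0 and 0 and limma 0 calls at each time. The median of the differences at 12 h was 0.72, with 34 of 35 estimates positive.

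The strains differed most in mixed culture at 12 h. There 4 of 35 genes were higher in strain 12, against 1.69% of all genes, and 34 of the 35 estimates were positive, with a median log2 fold change of 0.85. The 3 libraries of strain 12 lay above the 3 of strain 11 for 23 of the 35 genes, against 13.5% of all genes. RPL16B was at 481, 270 and 650 CPM in strain 12, against 198, 49.3 and 181 CPM in strain 11 (log2 fold change 1.65 ± 0.46, adjusted p = 0.0201 in edgeR). RPL28 was at 450, 366 and 843 CPM in strain 12, against 231, 134 and 262 CPM in strain 11 (log2 fold change 1.37 ± 0.41, adjusted p = 0.0360 in edgeR). RPL8A was at 403, 245 and 499 CPM in strain 12, against 174, 113 and 158 CPM in strain 11 (log2 fold change 1.34 ± 0.40, adjusted p = 0.0350 in edgeR). RPL19B, whose protein takes part in a bridge to the small subunit, was at 776, 586 and 928 CPM in strain 12, against 353, 268 and 378 CPM in strain 11 (log2 fold change 1.18 ± 0.32, adjusted p = 0.0172 in edgeR). None of the 4 overlapped between the strains. With the replicate number as a block the count was 6. It was 0 without replicate 2 of strain 11 or replicate 1 or 3 of strain 12, 1 and 2 without replicate 1 and 3 of strain 11, 7 without replicate 2 of strain 12, and 0 with limma on log2(RPKM + 1). Small subunit genes had a similar median of 0.95, with 4 of 38 higher in strain 12, and other large subunit and stalk genes a median of 0.86, with 1 of 25 higher.

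In single culture at 12 h only RPL16A of the 35 genes differed, and it was lower in strain 12, against 1.04% of all genes in either direction. Its level was 275, 226 and 295 CPM in strain 12, against 782, 380 and 930 CPM in strain 11 (log2 fold change -1.38 ± 0.36, adjusted p = 0.0354 in edgeR). With the replicate block the count was also 1. The call was lost without replicate 1 or 3 of strain 11 or any of the 3 libraries of strain 12, with an adjusted p of up to 0.387. In single culture no gene differed at 20 h (0.572% of all genes) or at 30 h (0.518%), with 2 and 1 genes at an unadjusted p under 0.05. DESeq2 gave 1 and 0 calls and limma 2 and 0 calls there. In mixed culture no gene differed at 20 h (0.191% of all genes, 3 at an unadjusted p under 0.05, 0 in DESeq2 and limma).

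In mixed culture at 30 h RPL23A, whose protein faces the small subunit, was the only gene that differed between the strains, against 0.899% of all genes. It was at 13.9, 15.4 and 0 CPM in strain 12, against 80.9, 108 and 168 CPM in strain 11, with no overlap (log2 fold change -3.21 ± 0.69, adjusted p = 0.00601 in edgeR). These values rested on 2, 2 and 0 reads in strain 12 and 7, 14 and 17 reads in strain 11, so the size of the change is uncertain. The call was lost without replicate 3 of strain 11 (adjusted p = 0.0566) or replicate 2 of strain 12 (0.0826). The paralog RPL23B overlapped between the strains, with 83.4, 131 and 98.0 CPM in strain 12 and 80.9, 123 and 148 CPM in strain 11. Averaged over the 6 pairs of culture and time, RPL23A was lower in strain 12 (log2 fold change -0.96 ± 0.23, adjusted p = 0.00487 in edgeR), and so was RPL16A (-0.55 ± 0.18, adjusted p = 0.0483), against 6.84% of all genes in either direction. The call of RPL23A held without any single library (adjusted p of up to 0.0336), whereas the count of 2 became 1 without any of 23 libraries. The median over the 35 genes was 0.03.

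The contrast of the strains in their change from 12 to 20 h was added after the data were seen. In mixed culture 33 of 35 estimates were negative, with a median of -1.17, and 2 genes passed the test, against 0.654% of all genes in either direction. RPL16B fell in strain 12 in mixed culture to 63.1, 34.5 and 40.7 CPM at 20 h, against 481, 270 and 650 CPM at 12 h, while in strain 11 in mixed culture it was at 185, 193 and 65.0 CPM at 20 h, against 198, 49.3 and 181 CPM at 12 h. The difference between these changes was -3.19 ± 0.74 on the log2 scale (adjusted p = 0.0224 in edgeR). RPL3 was at 316, 323 and 415 CPM at 20 h, against 2598, 1402 and 2166 CPM at 12 h in strain 12, and at 798, 608 and 544 CPM at 20 h, against 1178, 1133 and 996 CPM at 12 h in strain 11. The difference was -1.79 ± 0.46 (adjusted p = 0.0435 in edgeR). The count of 2 ranged from 0 to 3 on leaving out 1 library, became 0 with limma and 5 with only the compared libraries. It was 0 without replicate 2 of 12 h in strain 11, replicate 1 or 3 of 12 h in strain 12, replicate 1 or 2 of 20 h in strain 11 or replicate 2 of 20 h in strain 12, and 1 without replicate 1 or 3 of 12 h in strain 11 or replicate 1 of 20 h in strain 12. In single culture 0 genes passed, against 0% of all genes, with 2 at an unadjusted p under 0.05 and 0 calls in DESeq2 and limma.

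The share of the A copy in the reads of a pair is given as a description, since reads can be exchanged between near-identical copies. By the mean over libraries, which gives shallow libraries equal weight, the most even pair was RPL8, with an A share of 48.98% over 36 libraries, and the least even was RPL18, with 86.0%. With reads pooled over libraries RPL19 was at 50% and RPL8 at 44.7%. RPL12, in which the B copy dominates, had a mean A share of 14.4%. The proteins of the RPL12 and RPL18 pairs are identical. By the same means the strains differed most in RPL4, RPL9 and RPL1. RPL4 had an A share of 48.9 ± 29.7% in strain 12 (n = 16 libraries with reads) and 81.7 ± 23.01% in strain 11 (n = 17), from 266 reads in all. RPL9 had 50.1 ± 33.98% in strain 12 and 69.5 ± 30.2% in strain 11 (n = 18 each). RPL1 had 11.1 ± 22.05% in strain 12 (n = 9) and 28.6 ± 34.5% in strain 11 (n = 8), from 53 reads. In all 3 the SDs overlapped, and with pooled reads RPL1 was at 18.2% in strain 12 and 19.4% in strain 11. In libraries with at least 50 reads on the pair, RPL9 was at 69.9 ± 5.70% in strain 12 (n = 3) and 76.4 ± 3.89% in strain 11 (n = 4). In such libraries the largest gaps were those of RPL23, with 32.1 ± 11.3% in strain 12 (n = 5) and 50.6 ± 9.39% in strain 11 (n = 6), and of RPL16, with 60.2 ± 15.5% in strain 12 (n = 8) and 77.8 ± 11.4% in strain 11 (n = 6). RPL23 was added here after its values were seen.

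RPL16, with copies that can be told apart in every 75-base coding window of R64, had an A share of 60.01 ± 21.7% in strain 12 and 73.6 ± 16.2% in strain 11 (n = 18 each). The sequences of strains 11 and 12 were not examined. The part of strain differences in sequence was not tested for this share or for any other comparison of the strains. At 12 h, where the depth was largest, the A share of RPL16 was 61.0, 60.6 and 53.7% in mixed and 68.7, 54.9 and 30.6% in single culture of strain 12, against 70.0, 90.7 and 78.7% in mixed and 87.5, 59.8 and 80.4% in single culture of strain 11. In mixed culture the strains did not overlap, and in single culture 1 library of strain 12 lay above 1 of strain 11.

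Across the 36 libraries the log2 CPM of the 35 tested genes were correlated with each other, with a median r of 0.68 over 595 pairs (0.34 to 0.91), compared with 0.0067 over all pairs of the 3670 genes. After the group means were taken out the median was 0.19. The libraries differ in depth and time, and these values are a description.

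In the promoters of the R64 genome (250 bases before to 50 after the start codon), the motifs CCGTACA and CCATACA, which resemble the core of Rap1 sites, were searched on both strands. The motifs cannot overlap at the same position. Either was found in 5 of the 44 genes, which is 11.4%, and in 4.81% of all 6007 promoters. The share was 16.2% among 37 other large subunit and stalk genes and 12.5% among 56 small subunit genes, so it was not particular to the 44 genes. The matches lay 216 to 250 bases before the start codon, at the far end of the window. The stretches of RPL10, the gene with the highest level, and RPL11B are printed with the matches in capitals, 1 in RPL10 and 2 in RPL11B.
RPL10, chrXII:282677-282709, plus strand, CCGTACA 249 bases before the start codon: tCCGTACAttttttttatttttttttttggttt
RPL11B, chrVII:649111-649157, minus strand, CCGTACA 250 and CCATACA 235 bases before the start codon: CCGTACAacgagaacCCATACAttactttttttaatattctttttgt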

How the data were processed

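RNA of sorted cells was amplified and sequenced on a SOLiD system. The authors aligned reads to Saccer2 and tested FPKM values with Cuffdiff, and Cufflinks 1.3.0 is named in the submitters' processing notes. Neither the strand setting nor the rule for reads with several matches is given in the sources used here. Deposited counts are whole reads per gene, and the deposited RPKM equalled, within 1%, reads per kilobase and per 1000000 reads on exons when recomputed. Coordinates of gene models are as deposited (Saccer2). R64 served for names and sequences by locus tag (6025 of 6717 identifiers matched, 692 did not).

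The deposited counts of all 36 libraries were fitted together in edgeR 4.0.16 (R 4.3.3) with filterByExpr, TMM factors and 1 coefficient per group (3670 genes, common dispersion 0.0833). Cuffdiff could not be rerun from counts. The step was also run on simulated counts with known changes, as a check of the code only. That run does not bear on error rates in these data. The p-values rest on the spread between libraries within groups, with a dispersion estimated over all 12 groups and moderated across genes. By the paper, aliquots were taken as the fermentations went on, and strains were then separated by flow cytometry. Libraries of different times, and of both strains in mixed culture, can therefore share a fermentation. The main fit treated all libraries as independent. The labels do not name the fermentation, so the part of sharing was not tested directly. Alternatives were RLE factors, TMM without ribosomal protein genes, DESeq2 1.42.0, no filter, only the compared libraries, a replicate block, limma 3.58.1 on log2(RPKM + 1), length offsets and each library left out. Same-numbered libraries deviated together (every r over 0.1) only between the strains at 12 h. There r was 0.45, 0.29 and 0.38 in single and 0.20, 0.10 and 0.17 in mixed culture. The main fit used no pairing, also for these comparisons, and the replicate block over all 12 groups was an alternative only. All 36 replicate pairs differed beyond sampling noise.

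The members and lists were chosen with earlier results of these data known. Named genes were the 3 highest and 3 lowest by RPKM, the largest rise and fall among called genes without overlap per comparison (without the overlap condition for interactions and the strain average), the pairs with extreme A shares, the genes without a paralog, those called most often, and regulators that passed. RPL8A, RPL19B, RPL28 and RPL3 in the interaction were named in addition, after their values were seen, as members of small counts, and so were NSR1, RPA135 and RPA190.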

Additional observations from a re-analysis of the deposited data

Results flagged for a closer look

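The change from 12 to 20 h differed between groups for 3 genes, as tested in the interaction contrasts that were added after the data were seen. For RPL17A the mixed minus single difference was 2.39 on the log2 scale in strain 12 (adjusted p = 0.0107 in edgeR) and 2.27 in strain 11 (adjusted p = 0.0151 in edgeR). In mixed culture the strain 12 minus strain 11 difference was -3.19 for RPL16B (adjusted p = 0.0224 in edgeR) and -1.79 for RPL3 (adjusted p = 0.0435 in edgeR). Groups of 3 libraries are too small to test for outlying libraries.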

How the results depend on the processing

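All 15 fold changes of named genes kept their sign under every alternative that gave one, and limma ended 5 and the fit of the compared libraries alone 3 of these calls. Medians near 0 did change sign. That of the strain difference in the culture effect at 20 h was -0.11, but 0.17 with limma and up to 0.52 without 1 library (replicate 1 of strain 11 in mixed culture at 20 h). DESeq2 gave 7 genes for strain 12 minus strain 11 in mixed culture at 12 h (4 in the analysis above), 1 in single culture at 20 h (0) and 1 for the strain difference in the culture effect at 12 h (0). RLE factors gave 7 for the first of these, and RLE factors, TMM without ribosomal protein genes and limma each gave 1 for the strain average (2). With only the compared libraries the counts were 11 for the strains in mixed culture at 12 h, 27 for 20 h minus 12 h in strain 11 in mixed culture (14), 5 for the strain difference in this change in mixed culture (2), and 0 for strain 12 mixed minus single at 12 h (2), for the strains in single culture at 12 h (1) and for 30 h minus 20 h in strain 12 in single culture (1). limma on log2(RPKM + 1) gave 0 for the culture effect at 12 h in either strain, for the strains at 12 h in either culture and for the strain difference in the time change in mixed culture. It gave 2 for the culture effect at 20 h in either strain, 2 for the strains in single culture at 20 h, 2 for 30 h minus 20 h in strain 12 in single culture, and 5 and 20 for 20 h minus 12 h in mixed culture of strains 11 and 12. Without the filter the counts were 7 for the strains in mixed culture at 12 h, 2 for strain 12 mixed minus single at 20 h (1), 1 for the strains in single culture at 20 h, 1 for the strain difference in the culture effect at 30 h (0) and 1 for that in the time change in mixed culture. The causes were not tested. With retrotransposon genes and the 10 most abundant genes taken out of the total, the share of the 44 genes was 1.42% in strain 11 in single culture at 12 h (1.304%) and 0.414% in strain 12 in mixed culture at 20 h (0.381%). The replicate block changed no count by over 1.5 times, giving 6 for the strains in mixed culture at 12 h.

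Leaving out 1 library gave 4 to 13 genes for 20 h minus 12 h in strain 11 in mixed culture, 0 to 7 for the strains in mixed culture at 12 h, 0 to 4 for strain 12 mixed minus single at 12 h, 0 to 3 for the strain difference in the time change in mixed culture, 0 to 2 for the strain difference in the culture effect at 12 h and 1 to 2 for the strain average. The range was 0 to 1 for strain 11 mixed minus single at 12 h, strain 12 mixed minus single at 20 h, the strains in single culture at 12 and 20 h and in mixed culture at 30 h, 30 h minus 20 h in strain 12 in single culture, the strain difference in the culture effect at 30 h and the culture difference in the time change of either strain. The fall at 20 h held in the other 3 comparisons, with 34 to 35, 25 to 31 and 17 to 21 genes. With 2 to 14 of the 44 genes without a read per library at 20 h, values of the low genes after 12 h rest on few reads.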
